A study of Mus musculus with 23 samples.

Results

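The data described here were 2 imprinted loci of mouse chromosome 6 in bisulphite sequencing of hybrid embryos: the divergent genes Sgce and Peg10, and the neighbourhood of Mest, Copg2 and Klf14. The members were all windows whose midpoint lay in either locus, and they were taken by position alone. There were 53 windows in the E6.5 table of 333984 (22 at Sgce and Peg10, 31 at Mest, Copg2 and Klf14) and 60 windows in the E7.5 tables of 402812 (25 and 35). The E7.5 windows ran from chr6:4659274 to 4764388 and from chr6:30726388 to 30962485 in GRCm38. Each value is percent methylation, the share of CpG calls in a window that were methylated. A window was described by the submitters as holding 100 CpGs, and the windows of the 2 loci held 44 to 119 CpG sites of the reference at E7.5.

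The libraries were made by post-bisulphite adaptor tagging (PBAT), which adds adaptors after bisulphite conversion and suits small samples. At E6.5, epiblast or extra-embryonic ectoderm (ExE) was separated by hand and pooled, with 4 epiblasts or 8 ExE to a pool. Reciprocal crosses of C57BL6/Babr (B6) and CAST/Ei (CAST) gave B6/CAST and CAST/B6 embryos, the mother's strain being named first, with 3 epiblast and 2 ExE libraries of each at E6.5. The third E6.5 group, matDKO/CAST (2 epiblast and 3 ExE libraries), had CAST fathers and B6/129 mothers that were Dnmt3a floxed/floxed, Dnmt3b floxed/floxed and carried Zp3-cre, which acts in the growing oocyte. The oocytes lacked both de novo DNA methyltransferases, while the embryos kept the paternal copy of each gene. The mothers' 129 background was not shared by B6/CAST, so strain and deletion cannot be told apart in that comparison. At E7.5 each library came from a single embryo, and each of B6/CAST and CAST/B6 had 2 for epiblast and 2 for ExE. Values by parental allele were given for E7.5 only; all E6.5 values pool the alleles. One B6/CAST epiblast column at E6.5 had a name that matched its group but carried a replicate number that no label of the group has. It is called the unnumbered library, since no label could be assigned to it.

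Genomic imprinting is expression from one parental copy of a gene. It is typically, but not always, set by methylation that one germline lays down and the embryo keeps. At a maternal germline differentially methylated region (gDMR), de novo methylation in oocytes marks a CpG-rich stretch, often a promoter, which stays unmethylated in sperm. After fertilisation the mark is held through reprogramming by ZFP57, a zinc finger protein that binds the methylated form of TGCCGC, and by the maintenance methyltransferase. Peg10, a gene derived from a retrotransposon and needed for placental development, and Sgce, which encodes epsilon-sarcoglycan, share a promoter region and are expressed from the paternal copy. Mest, a paternally expressed gene of the hydrolase family, has such a region at its promoter. Copg2 encodes a subunit of the coatomer of transport vesicles and lies tail to tail with Mest. Klf14, an intronless Krüppel-like factor gene, is expressed from the maternal copy.

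Sequences of the regions that carried the parental difference, and of the Copg2 promoter for contrast, are given 5′ to 3′ from GRCm38.p6, with every CpG in capitals. The table of RefSeq promoters (250 bases before to 50 after a start) held entries for 2 of the 5 member genes, Mest and Copg2, and none for Peg10, Sgce or Klf14. For Peg10 the central 300 bases of the differentially methylated window, which is intronic, were read from the genome on the plus strand (chr6:4748222-4748521). The first Mest promoter is the upstream one (chr6:30733256-30733555, plus strand), the next is that of the main start (chr6:30737800-30738099, plus strand), and the Copg2 promoter is at chr6:30896745-30897044, minus strand.
Peg10/Sgce region: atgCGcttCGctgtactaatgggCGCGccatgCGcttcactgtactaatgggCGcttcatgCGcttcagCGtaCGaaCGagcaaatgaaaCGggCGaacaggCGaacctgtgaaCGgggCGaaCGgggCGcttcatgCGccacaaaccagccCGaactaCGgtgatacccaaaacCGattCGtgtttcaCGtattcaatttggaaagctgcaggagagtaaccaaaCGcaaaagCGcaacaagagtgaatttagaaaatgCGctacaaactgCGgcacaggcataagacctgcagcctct
Mest, upstream start: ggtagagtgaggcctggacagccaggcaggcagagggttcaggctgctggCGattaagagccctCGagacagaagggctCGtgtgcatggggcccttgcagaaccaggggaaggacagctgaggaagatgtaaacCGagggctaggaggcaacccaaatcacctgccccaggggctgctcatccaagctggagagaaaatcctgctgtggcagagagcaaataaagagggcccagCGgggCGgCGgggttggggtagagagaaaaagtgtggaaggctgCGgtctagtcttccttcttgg
Mest, main start: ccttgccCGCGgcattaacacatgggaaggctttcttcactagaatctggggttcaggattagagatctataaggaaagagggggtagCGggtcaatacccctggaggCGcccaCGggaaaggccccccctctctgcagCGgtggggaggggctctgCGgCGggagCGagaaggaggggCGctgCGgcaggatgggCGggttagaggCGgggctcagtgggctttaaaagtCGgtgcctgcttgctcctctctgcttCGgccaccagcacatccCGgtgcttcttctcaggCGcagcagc
Copg2: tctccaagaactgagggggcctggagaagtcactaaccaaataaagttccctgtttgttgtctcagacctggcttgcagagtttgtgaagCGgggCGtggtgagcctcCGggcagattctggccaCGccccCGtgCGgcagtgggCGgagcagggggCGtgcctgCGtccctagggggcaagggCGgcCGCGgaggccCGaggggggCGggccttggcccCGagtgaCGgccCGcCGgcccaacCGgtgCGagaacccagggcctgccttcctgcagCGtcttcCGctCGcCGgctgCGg
The Peg10 stretch held 27 CpGs at 52.7% GC. The upstream Mest promoter held 8 CpGs, the main Mest promoter 17 and the Copg2 promoter 25, beside a median of 7 over 32851 promoters. The letters TGCCGC were searched on both strands, as TGCCGC and as GCGGCA, which do not overlap each other here. They were found at positions 9 and 184 of the main Mest promoter, at position 135 of the Copg2 promoter and at position 272 of the Peg10 stretch, in each case on the strand opposite to the one printed, and not in the upstream Mest promoter. Of all promoters of this length, 11.6% held at least 1 match. A match is a description of letters and not a measured binding site.

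The libraries behind these values differed in level. Mean methylation over autosomal windows was 63.9% to 78.3% in the 6 wild-type E6.5 epiblast libraries and 50.5% to 64.5% in the 4 wild-type ExE libraries. It was 51.1% to 53.0% in the matDKO/CAST epiblast libraries and 37.2% to 39.3% in matDKO/CAST ExE. At E7.5 it was 71.7% to 75.6% in epiblast and 56.1% to 59.2% in ExE. Each E6.5 library had a value in 72.2% to 99.9% of the windows, whereas the E7.5 alleles had one in 75.7% to 90.5%. The number of calls behind a value was not given, so the depth is unknown and no interval could be computed for a single value. The tissue labels were checked at promoters that mark the lineages. The Elf5 promoter, which is unmethylated in trophoblast, was at 63.3% ± 12.8 (SD, n = 6) in E6.5 epiblast and 21.1% ± 19.3 (SD, n = 4) in ExE, and at 66.9% ± 7.51 and 35.3% ± 10.6 (SD, n = 4 each) at E7.5. Pou5f1, which encodes the pluripotency factor OCT4, was at 3.81% ± 3.2 in E6.5 epiblast against 39.1% ± 26.9 in ExE (SD, n = 6 and 4). The rest of the marker promoters separated the tissues less. Of 6 trophoblast markers 1, Elf5, was higher in epiblast at E7.5, and the other 5 (Tfap2c, Cdx2, Eomes, Hand1 and Tead4) differed by -6.09 to 2 points and were not called. Of 4 epiblast markers Pou5f1 and Nanog were lower in epiblast at E7.5, Sox2 was not called, and Dppa3 was higher in epiblast by 9.00 points, with adjusted p of 0.0319 by limma. Over all windows 82.9% were higher and 1.3% lower in epiblast at E7.5. Elf5 and Dppa3 thus followed the direction of the genome, and Pou5f1 and Nanog ran against it. A pool mixes many cells, so a level between 0 and 100% can mean some cells fully methylated or all cells partly methylated, and these values do not separate these cases.

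The first question was where each locus differs between parental alleles. At Sgce and Peg10, 1 window carried the difference at E7.5, chr6:4748026-4748717, 692 bp long with 49 CpGs, which starts 720 bp inside Peg10. In epiblast the maternal allele of this window was at 93.5% and 100% in the B6/CAST libraries and at 98.4% and 92.9% in the CAST/B6 libraries. The paternal allele was at 4.65%, 2.94%, 0% and 0.575% in the same order. All 4 libraries thus had a nearly fully methylated maternal and a nearly unmethylated paternal copy, with a mean difference of 94.2 ± 4.38 percentage points (SD, n = 4). In ExE the maternal allele was at 94.8%, 89.3%, 55.0% and 86.4%, and the paternal allele at 0.510%, 0%, 2.29% and 2.02%. The maternal copy of CAST/B6 ExE replicate 1 was therefore lower than the other ExE libraries, and the mean difference was 80.2 ± 18.8 points.

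The bounds of this region are known only to the nearest windows with both alleles. A region was taken as the run of windows with a maternal allele higher in all 4 ExE libraries by a mean of at least 40 points, so the ExE difference itself is a description. The nearest window with both alleles before it, chr6:4737949-4741814 in Sgce, differed by 14.8 ± 8.68 points in ExE and 2.17 ± 9.17 in epiblast (SD, n = 4). The nearest after it, chr6:4755398-4757144 in Peg10, differed by -6.81 ± 6.07 and -2.94 ± 4.44 points. Between them and the region lay 3 windows upstream and 2 downstream without values for both alleles in all 4 libraries, so the region could span anything from 692 to 13583 bp. Thresholds of 25 and 60 points, and the epiblast in place of ExE, gave the same bounds.

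The windows that hold the gene starts are among those without allele values. The window chr6:4746346-4747476 covers the starts of both Sgce and Peg10, which point away from each other, and holds 46.0 CpGs per kb. All its reads together gave 25.7%, 21.7%, 87.8% and 38.6% in the E7.5 epiblast libraries (B6/CAST 1 and 2, then CAST/B6 1 and 2) and 42.5%, 42.1%, 45.9% and 35.9% in ExE. The ExE libraries lay close to each other at intermediate levels, and 1 epiblast library stood far above the other 3. The next window, chr6:4747477-4748025, was at 14.9% to 36.5% in epiblast and 27.3% to 65.4% in ExE, and its only allele value was a maternal 100% in 1 ExE library. In the following window chr6:4748769-4754162 the maternal allele averaged 75.9% ± 29.5 in 3 ExE libraries, with no paternal value to set beside it.

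**Figure D1:**
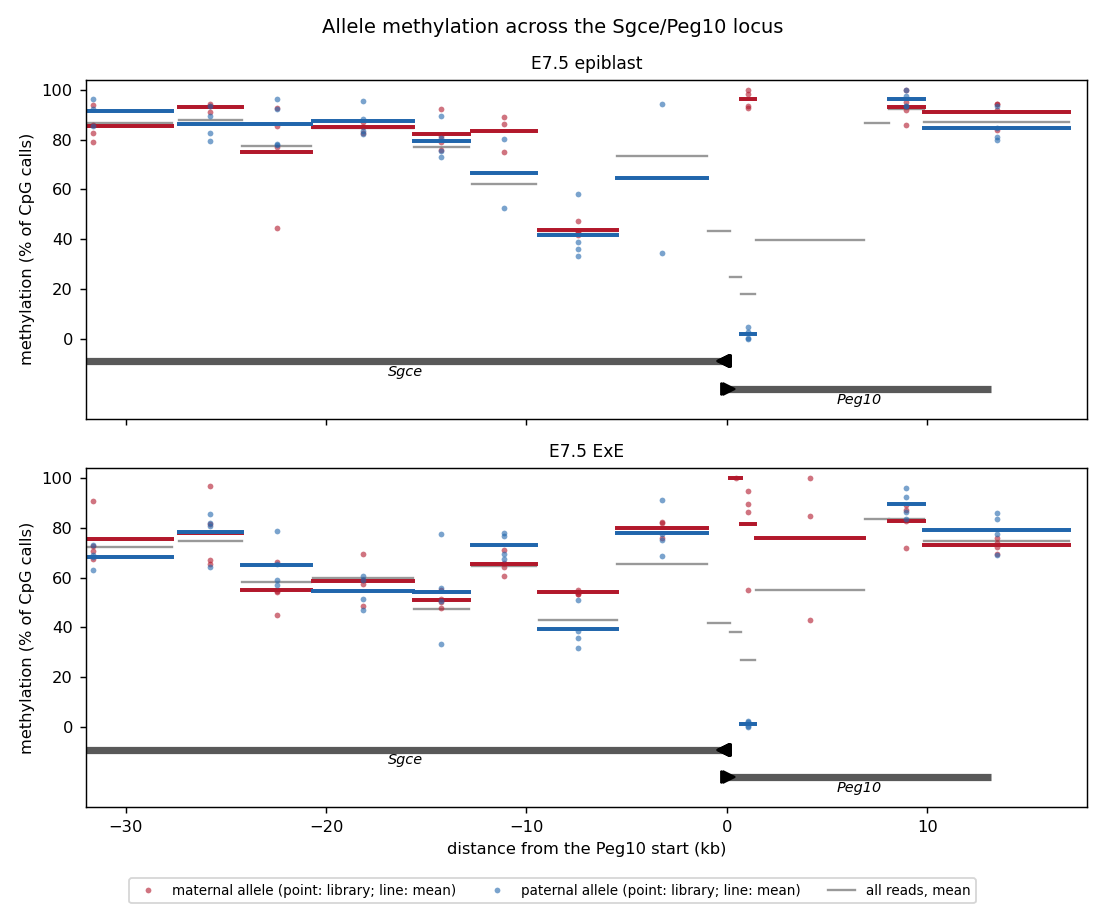
Methylation of the maternal and the paternal allele across Sgce and Peg10 at E7.5, in percent of CpG calls against the distance from the Peg10 start in kb; points are libraries, coloured lines their mean over a window, grey lines the mean of all reads, and triangles mark annotated starts. The alleles part at 1 window, where the maternal mean was 96.2% in epiblast and 81.4% in ExE and the paternal mean 2.04% and 1.2%, and several windows around the starts have no allele line.

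At Mest the parental difference was longer. It spanned chr6:30732525-30739966, 7442 bp with 238 CpGs, from position -981 bp of the upstream Mest start to 1916 bp after the main start. The region held 5 windows, 3 of which had both alleles in all 4 ExE libraries. The window before the main start, chr6:30736478-30737788, had maternal values of 94.7%, 95.5%, 96.8% and 98.4% in epiblast and 85.6%, 88.3%, 88.9% and 91.4% in ExE. Its paternal values were 0.700%, 0.877%, 14.7% and 0% in epiblast and 2.46%, 5.06%, 8.15% and 4.63% in ExE. The window after the start, chr6:30738319-30739966, had maternal means of 91.7% ± 4.67 in epiblast and 89.9% ± 8.59 in ExE, and paternal means of 7.11% ± 5.37 and 2.63% ± 2.50 (SD, n = 4). Both windows showed no overlap of the alleles in either tissue.

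The window on the main start, chr6:30737790-30738317, is where the printed main promoter lies and holds 89.0 CpGs per kb. Its paternal allele was at 0% to 2.94% in all 8 libraries. Its maternal allele was measured in 5 of them, at 93.9% and 92.1% in epiblast and at 86.2%, 93.8% and 81.7% in ExE. At the upstream start, chr6:30732525-30734457, the alleles were closer. The maternal values there were 56.0%, 89.5%, 84.6% and 75% in epiblast and 80.2%, 77.4%, 88.9% and 49.4% in ExE, and the paternal values were 19.0%, 3.33%, 15.5% and 25% in epiblast and 44.6%, 36.7%, 25.3% and 16.2% in ExE. The paternal copy was thus partly methylated at the upstream, CpG-poorer start, and every library kept the maternal copy above the paternal one.

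The edges of the Mest region were sharper. Upstream, the adjoining window chr6:30726388-30732524 differed by 12.3 ± 7.58 points in ExE and 1.72 ± 10.4 in epiblast, against 43.3 ± 13.9 and 60.5 points in the first window inside. Downstream, the window chr6:30740258-30744124 began 291 bp after the region and differed by 1.74 ± 3.53 points in ExE, against 87.3 in the last window inside. That window holds Mir335, a microRNA in an intron of Mest, and its alleles averaged 78.2% and 76.5% in ExE. A threshold of 25 points gave the same bounds. At 60 points the ExE bounds shrank to chr6:30736478-30739966 (3489 bp), while the epiblast bounds did not change. No other run of windows in either locus passed the rule.

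**Figure D2:**
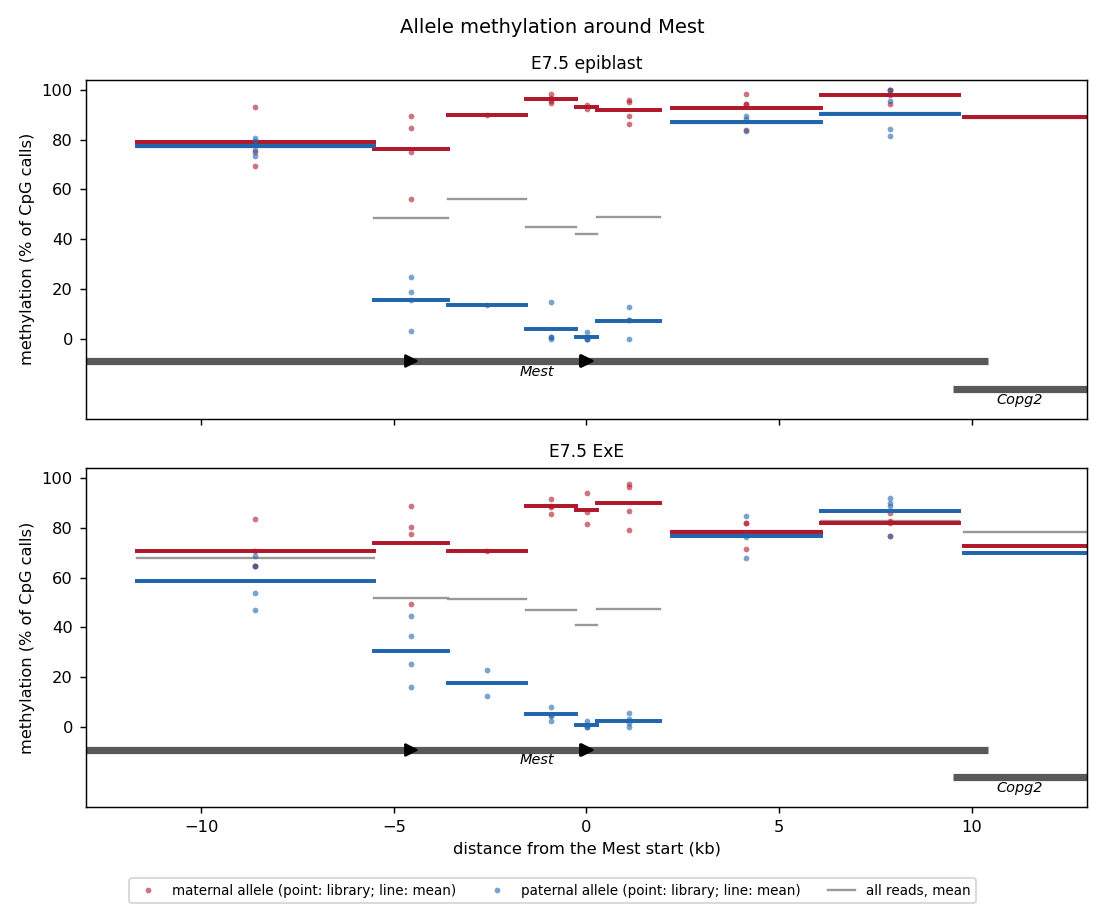
Methylation of the maternal and the paternal allele around Mest at E7.5, in percent of CpG calls against the distance from the main Mest start in kb; points are libraries, coloured lines their mean over a window, grey lines the mean of all reads, and triangles mark annotated starts. The alleles are apart from the upstream start to past the main start, where the paternal mean was 0.735% in epiblast and 0.771% in ExE, and they meet on both sides.

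Each window was then tested for a parental difference across the genome with limma, using each library's maternal value less its paternal value, with the cross as a term and Benjamini-Hochberg adjustment. In epiblast 30 of the 60 windows had both alleles in all libraries. Of these, 3 were higher on the maternal allele and none lower, against 0.00838% of all windows called, 0.00629% higher and 0.0021% lower. They were chr6:4748026-4748717 (94.2 ± 4.24 points, SE, adjusted p = 0.0140), chr6:30736478-30737788 (92.3 ± 4.61, adjusted p = 0.0148) and chr6:30738319-30739966 (84.6 ± 4.09, adjusted p = 0.0148). In ExE 45 windows had both alleles and 2 were higher on the maternal allele, against 0.00722% of all windows called, 0.00503% higher and 0.0022% lower. They were the same 2 Mest windows, at 83.5 ± 3.90 and 87.3 ± 3.94 points (SE, adjusted p = 0.0270 each). The Peg10 window did not pass in ExE (80.2 ± 5.97 points, adjusted p = 0.104), nor did the upstream Mest start (43.3 ± 5.84 points, adjusted p = 0.777). Leaving out any 1 library left 0 of these windows called in either tissue, at adjusted p of 0.395 to 0.810 with 3 libraries, while the differences stayed between 82.0 and 96.4 points. Over all tested members the median difference was 1.95 points in epiblast, with 19 of 30 windows higher on the maternal allele, and 0.837 in ExE, with 25 of 45.

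The difference of the parental difference between the tissues was tested in the same way, and limma called 0 of 30 windows (0 at an unadjusted p under 0.05), as it did over the whole genome (0% called). At the Peg10 window ExE lay 14.0 ± 7.50 points (SE) below epiblast, with an adjusted p of 0.913. Over the Mest region the mean maternal level was 88.1% ± 5.48 and the paternal level 8.97% ± 5.50 in epiblast (SD, n = 4). The difference of 79.1 ± 7.41 points had an exact sign-flip permutation p of 0.125, two-sided, which is the smallest that 4 libraries allow. In ExE the means were 84.1% ± 5.49 and 12.8% ± 3.15.

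Maternal B6 and maternal CAST copies were both methylated at the imprinted windows. The difference between B6 and CAST alleles was tested with the parent of origin in the model. Limma called 0 of 45 windows in ExE (2 at an unadjusted p under 0.05) and 0 of 30 in epiblast (1 at an unadjusted p under 0.05), with 0% of all windows called in both. The lowest adjusted p was 0.539 in ExE and 0.748 in epiblast.

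The pooled reads of a window can be set beside its alleles, since equal sampling of both copies puts all reads at the midpoint. In the 3 Mest windows around the main start, with both alleles in 8, 5 and 8 libraries, all reads lay -2.66 ± 4.83, 1.92 ± 7.22 and 0.381 ± 6.50 points (SD) from the midpoint of the alleles. At the Peg10 window all reads were below the midpoint in 8 of 8 libraries, by 4.84 to 38.7 points. All reads there averaged 22.4% ± 10.7 against a midpoint of 45.2%. Only reads that cover a strain polymorphism enter the allele values, and the part of that in this gap was not tested.

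The body of Sgce was methylated on both alleles. Its 15 E7.5 windows (14 with a maternal epiblast value) had a median of 84.2% on the maternal and 85.3% on the paternal allele in epiblast, and 66.5% and 72.9% in ExE. In one of them, chr6:4687115-4691489, the ExE maternal allele averaged 66.5% ± 10.4 and the paternal allele 88.8% ± 2.17, a difference of -22.4 ± 4.34 points (SE) that did not pass adjustment (adjusted p = 0.777). The window chr6:4737949-4741814 stood out by its level. It was at 43.8% ± 2.55 and 41.7% ± 11.4 on the maternal and paternal allele of epiblast and at 54.0% ± 0.609 and 39.3% ± 8.26 in ExE (SD, n = 4). Its level was therefore intermediate on both copies, unlike that of the imprinted window.

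The body of Copg2 was also methylated on both alleles. Its 12 windows at E7.5 included 1 of low methylation next to the promoter, chr6:30893502-30896540, at 21.6% ± 2.13 in epiblast and 18.3% ± 3.52 in ExE. The other 11 lay between 81.2% and 93.7% in epiblast and between 67.7% and 83.4% in ExE. In ExE the parental differences of the 7 testable windows ran from -4.64 to 12.3 points and 0 were called. In epiblast 4 windows were testable, from -2.31 to 8.31 points, and 0 were called. The widest epiblast gap, -21.7 points at chr6:30869088-30877998, came from 1 library. At chr6:30893502-30896540 the ExE alleles averaged 39.6% maternal and 9.24% paternal, in 2 libraries each, of which only 1 had both and differed by -3.48 points. The window of the printed Copg2 promoter, chr6:30896541-30897209, which also covers the start of the long non-coding RNA 4930412F09Rik, was at 1.25% ± 0.601 in epiblast and 0.614% ± 0.279 in ExE. It was unmethylated on both copies, with allele means between 0% and 1.11%. At the 3′ end of Copg2, 1 window spans 55732 bp, because the reference has 50000 undetermined bases there.

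Klf14 had an unmethylated start. The window chr6:30958739-30959178, which covers the start, was at 0.462% ± 0.646 in epiblast and 0.707% ± 0.289 in ExE, and the next window into the gene was at 3.11% ± 0.958 and 5.45% ± 2.16. Further into the gene, chr6:30957432-30958274, all of it exon, was at 14.7%, 15.0%, 5.58% and 6.57% in the E7.5 epiblast libraries and at 34.7%, 25.1%, 41.2% and 26.3% in ExE. The tissues did not overlap, and both alleles were above the epiblast in ExE, with 36.6% ± 23.7 on the maternal and 30.6% ± 6.47 on the paternal copy against 14.7% ± 8.81 and 6.18% ± 1.65.

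The next question was how the tissues differ when the alleles are pooled. In epiblast 38 of 60 windows were higher and 2 lower than in ExE at E7.5, against 84.2% of all windows called, 82.9% higher and 1.3% lower. At E6.5 21 of 47 windows were higher and 1 lower in wild-type epiblast, against 60.3% of all windows called, 59.6% higher and 0.663% lower. The members' share was thus below that of the genome on both days. The median difference was 10.2 points at E7.5 and 13 at E6.5 over the members, and 16.5 and 16.6 points over all windows. The whole genome is shifted by that amount, and with each library's mean subtracted 3 members were higher and 18 lower at E7.5, and 0 higher and 4 lower at E6.5.

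Of the members that rose in epiblast, all but 1 window on each day were gene bodies or intergenic stretches. The exception was the window over the Tsga13 start, 20.4 points higher at E6.5 and 19.9 at E7.5 (adjusted p = 0.0116 and 0.000871). The most shifted at E7.5 was chr6:4731694-4734428 in Sgce, at 76.9% ± 2.92 in epiblast and 47.4% ± 7.75 in ExE (29.4 ± 3.78 points, SE, adjusted p = 0.000207). At E6.5 it was the intergenic window chr6:30944246-30950391, at 64.8% ± 15.7 and 32.5% ± 3.32 (32.3 ± 6.56 points, adjusted p = 0.00233). Of the 15 windows of the Sgce body, 11 were higher in epiblast at E7.5, and of the 12 of Copg2, 10 were. At E6.5 it was 8 of 13 in Sgce and 2 of 9 in Copg2. All 7 windows that lay wholly between the 5′ end of Copg2 and the far end of 4930412F09Rik, a stretch that also holds the testis-specific gene Tsga13, were higher in epiblast at E7.5, with a median of 19.9 points. The 5 windows of the Mest region were not called on either side.

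The exceptions lay in Klf14 and Peg10. The Klf14 window chr6:30957432-30958274 was lower in epiblast by 21.4 points (SE 4.15, adjusted p = 0.0014), and the E6.5 window at the same place, chr6:30957836-30958533, was lower by 18.9 points (SE 5.03, adjusted p = 0.0084). The 6 wild-type epiblast libraries were at 0% to 13.2% there and the 4 ExE libraries at 13.4% to 37.0%. The direction was thus the same on both days and ran against that of the genome. Just inside Peg10, chr6:4747651-4748247 was higher in epiblast at E6.5 by 27.6 points (SE 9.64, adjusted p = 0.0279). In Peg10, chr6:4748769-4754162 was at 39.8% ± 10.4 in epiblast and 55.1% ± 6.09 in ExE at E7.5 (adjusted p = 0.0239). Leaving out a library moved its adjusted p between 0.00966 and 0.0737, and 4 of the 8 such fits kept the call. Neither of these Peg10 calls was made on both days. Over the same stretch at E6.5, chr6:4749343-4755031 was at 86.5% ± 4.87 in epiblast and 83.9% ± 9.08 in ExE (adjusted p = 0.648). At E7.5 chr6:4747477-4748025 was at 24.8% in epiblast and 38.2% in ExE (adjusted p = 0.141). Both estimates were thus opposite in sign to the call on the other day, and that difference between the days was not tested.

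**Figure D3:**
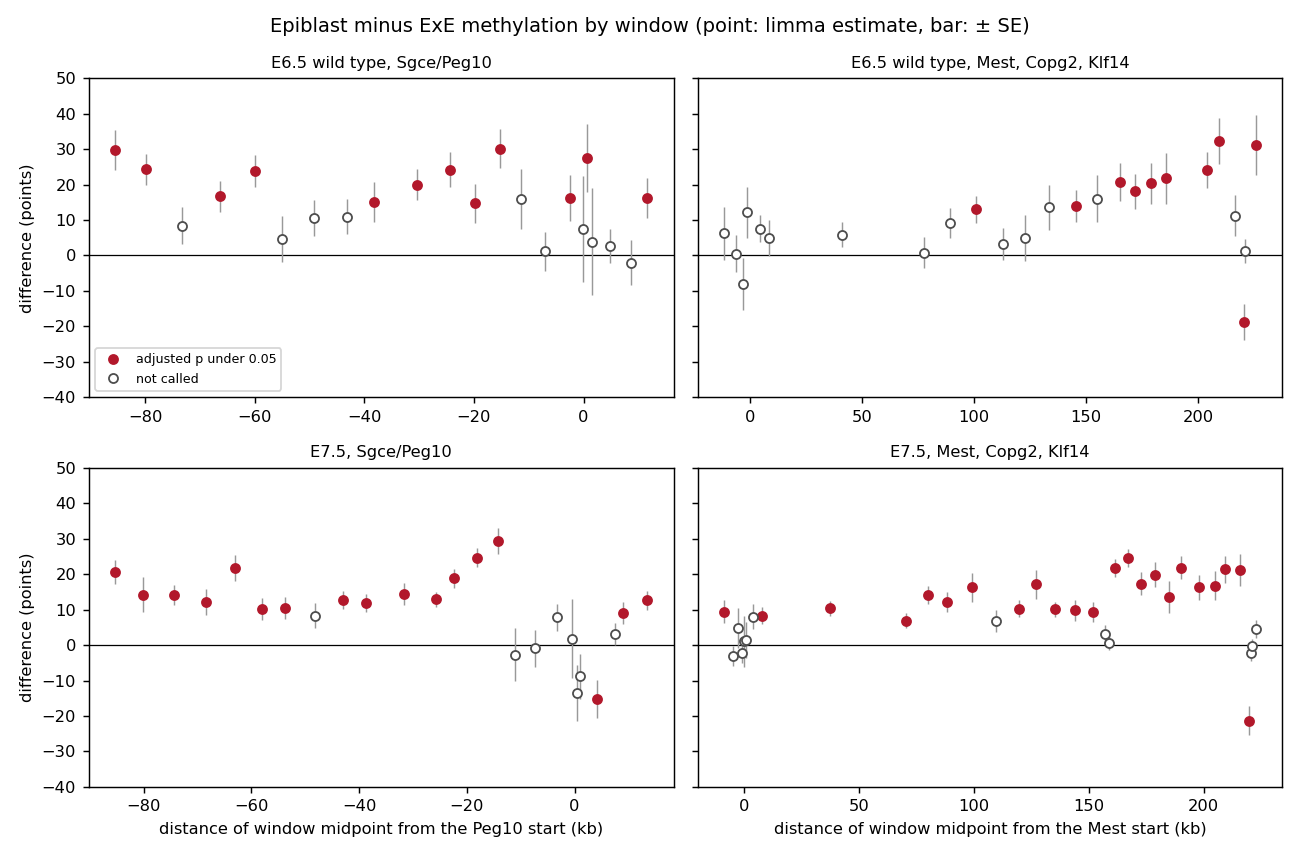
Epiblast minus ExE methylation of each tested window of the 2 loci, in percentage points against the distance of the window's midpoint from the Peg10 or the main Mest start in kb, at E6.5 and at E7.5; points are limma estimates, bars standard errors, and filled points passed an adjusted p of 0.05. Most windows lie above 0, a Peg10 window close to the start reaches 27.6 points at E6.5, and a Klf14 window lies below 0 on both days.

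Averaged over the windows of each imprinted region, the pooled levels of the tissues did not differ beyond their spread. The called E6.5 window chr6:4747651-4748247 lies partly in the Peg10 region. The Mest region was at 62.3% ± 8.04 in E6.5 epiblast (n = 6) and 62.3% ± 6.09 in ExE (n = 4), with a two-sided exact permutation p of 1. At E7.5 it was at 48.1% ± 2.41 and 47.7% ± 2.48 (n = 4 each, exact permutation p = 0.80). The library values at E7.5 all fell between 44.1% and 51.3%, close to the midpoint of a methylated and an unmethylated copy. The Peg10 region was at 52.9% ± 22.2 in E6.5 epiblast and 41.4% ± 12.7 in ExE (exact permutation p = 0.395), and at 18% ± 9.86 and 26.8% ± 10.9 at E7.5 (exact permutation p = 0.229). Its 6 epiblast values at E6.5 ran from 30.3% to 81.6%, so that the spread between libraries there was wide. With the library mean subtracted, ExE was higher at both regions on both days, as given with the other settings. At E7.5 the libraries of the tissues then did not overlap at either region, so the reading depends on that setting.

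The comparison with matDKO/CAST asks what remains of these regions when the oocyte could not methylate them. Over the Mest region the matDKO/CAST ExE libraries were at 18.3%, 26.1% and 6.35%, and the wild-type ExE libraries at 62.4%, 53.4%, 71.5% and 63.5%. Every matDKO/CAST library lay below every wild-type library, with a difference of -45.7 points and a two-sided exact permutation p of 0.0286, the smallest that 3 against 4 libraries allow. In epiblast the matDKO/CAST libraries were at 30.2% and 15.1%, and the wild-type libraries ran from 45.0% to 70.6% with a mean of 57.7% ± 9.43 (n = 6). The groups again did not overlap, with a difference of -35.1 points and an exact permutation p of 0.0357, the smallest possible. Windows without a value in a library of a comparison were left out, so wild-type levels here differ from those between tissues. The matDKO/CAST libraries were lower over all windows too, with a median of -16.4 points in epiblast and -12.4 in ExE. With the library mean subtracted the Mest difference was -14.2 points in epiblast (exact permutation p = 0.214) and -27.3 points in ExE (exact permutation p = 0.0286).

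Within the Mest region the 2 epiblast libraries of matDKO/CAST differed. At chr6:30733753-30736060, between the starts, they were at 27.1% and 16.7%, against 37.8% to 77.5% in wild type. On the main start, chr6:30737610-30738287, replicate 1 was at 65.4% and replicate 3 at 0%, and replicate 1 was at 80.0% in the window before it, where replicate 3 had no value. Taken over the narrower bounds of the 60-point rule, epiblast was at 32.7% ± 46.3 against 57.8% ± 29.0 (exact permutation p = 0.393), so the low level on the main start rests on replicate 3. Without replicate 1 the difference over the whole region was -42.7 points and without replicate 3 it was -18.2, but the latter rests on 4 windows in place of 3, since a window where replicate 3 had no value then entered. In ExE no such split was seen, with 6.55% and 10.8% on the main start in the 2 libraries that had a value.

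At the Peg10 region the matDKO/CAST ExE libraries were at 4.41%, 30.3% and 4.53% and the wild-type libraries at 31.4%, 40.1%, 59.6% and 34.5%. They did not overlap, with a difference of -28.3 points and an exact permutation p of 0.0286, the smallest possible, although replicate 2 of matDKO/CAST came within about 1 point of the lowest wild-type library. With the library mean subtracted the difference was -9.92 points (exact permutation p = 0.314). In epiblast the matDKO/CAST values of 33.3% and 6.67% overlapped the wild-type values of 22.2% to 90.9% (-31.8 points, exact permutation p = 0.25). These epiblast values rest on 1 window, where the tissue comparison at E6.5 had 2, so the wild-type ranges differ. Bounds extended upstream over both starts were added after the data were seen. They gave 12.6% and 2.52% in matDKO/CAST epiblast against 19.6% to 90.9% in wild type, a difference of -52.7 points (exact permutation p = 0.0357). In ExE they gave 7.47% to 27.0% against 42.0% to 52.5% (-32.5 points, exact permutation p = 0.0286).

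**Figure D4:**
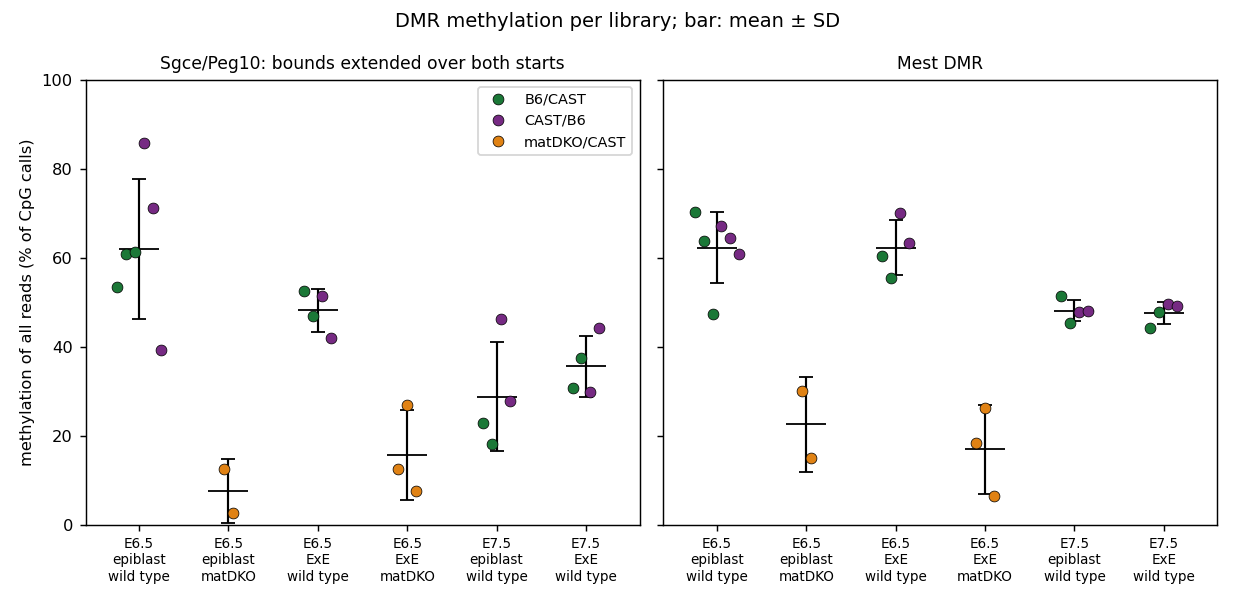
Methylation of all reads over the Sgce and Peg10 region with bounds extended over both starts (left) and over the Mest region (right), in percent of CpG calls, 1 point per library coloured by cross, with the mean and SD of each group. The matDKO/CAST libraries lie below the wild-type libraries of the same tissue at Mest, and the wild-type E7.5 libraries at Mest lie between 44.1% and 51.3%. Windows without a value in a library of a comparison were left out, so in the left panel the matDKO/CAST epiblast points rest on 2 windows and the wild-type epiblast points on 4.

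Single windows at the starts were also lower. The window over the Sgce and Peg10 starts at E6.5, chr6:4746871-4747642, was at 0% in both matDKO/CAST epiblast libraries and at 18% to 96.1% in the 6 wild-type libraries. In ExE it was at 0%, 20.9% and 14.3%, against 77.5%, 45.3%, 69.6% and 39.1%. The groups did not overlap in either tissue, and neither difference from B6/CAST passed adjustment (-65.8 ± 22.4 points, SE, adjusted p = 0.0622 in epiblast, and -49.7 ± 12.3, adjusted p = 0.132 in ExE). The share of all windows without such overlap was not counted. All windows had a median of -16.4 points in epiblast and -12.4 in ExE, so a lack of overlap need not be particular to the starts.

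Across both loci limma called 10 of 32 windows lower in matDKO/CAST than in B6/CAST epiblast and none higher, against 23.4% of all windows lower and 0.0291% higher, so the members' share was close to that of the genome. The median member fell by 19.0 points, against 16.4 points over all windows. Of the called windows 2 were in the Mest region or at its edge, chr6:30733753-30736060 (-38.9 ± 11.4 points, SE, adjusted p = 0.0419) and chr6:30730487-30733592 (-34.6 ± 7.22, adjusted p = 0.0187). The other 8 lay outside the imprinted regions, 3 of them in the Sgce body, 2 in Copg2, 2 in 4930412F09Rik (1 of them also in Tsga13) and 1 intergenic. The most shifted of these was chr6:4684321-4690340 in Sgce, at 52.5% and 34.4% in matDKO/CAST against 66.1%, 84.1% and 80.0% in B6/CAST (-33.3 ± 7.46 points, adjusted p = 0.0217). With each library's mean subtracted 0 windows were called, on the logit scale 0, and with all wild-type libraries as the control 17. Without the unnumbered B6/CAST library 3 were called and without B6/CAST replicate 3 5 were.

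In ExE limma called 0 of 49 windows (13 at an unadjusted p under 0.05), as it did over the genome (0% called, 65546 windows at an unadjusted p under 0.05). In simulated data this fit recovered 0 of 200 windows changed by 30 points, so the lack of calls does not show a lack of change. With all wild-type libraries as the control 9 were called. The 5 members with the lowest unadjusted p lay in the Mest region or across the Peg10 start, led by chr6:30738290-30740459 at -46.1 ± 9.19 points (SE, adjusted p = 0.132). The Copg2 promoter stayed at 0% to 2.17% in the 5 matDKO/CAST libraries, and the Klf14 window chr6:30957836-30958533 was at 20.4%, 15.4% and 10.3% in ExE, against 13.4% to 37.0% in wild type. The window just past the Mest region, chr6:30740723-30744309, kept 63.3% to 76.2% in matDKO/CAST, against 79.5% to 99.0% in wild type.

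**Figure D5:**
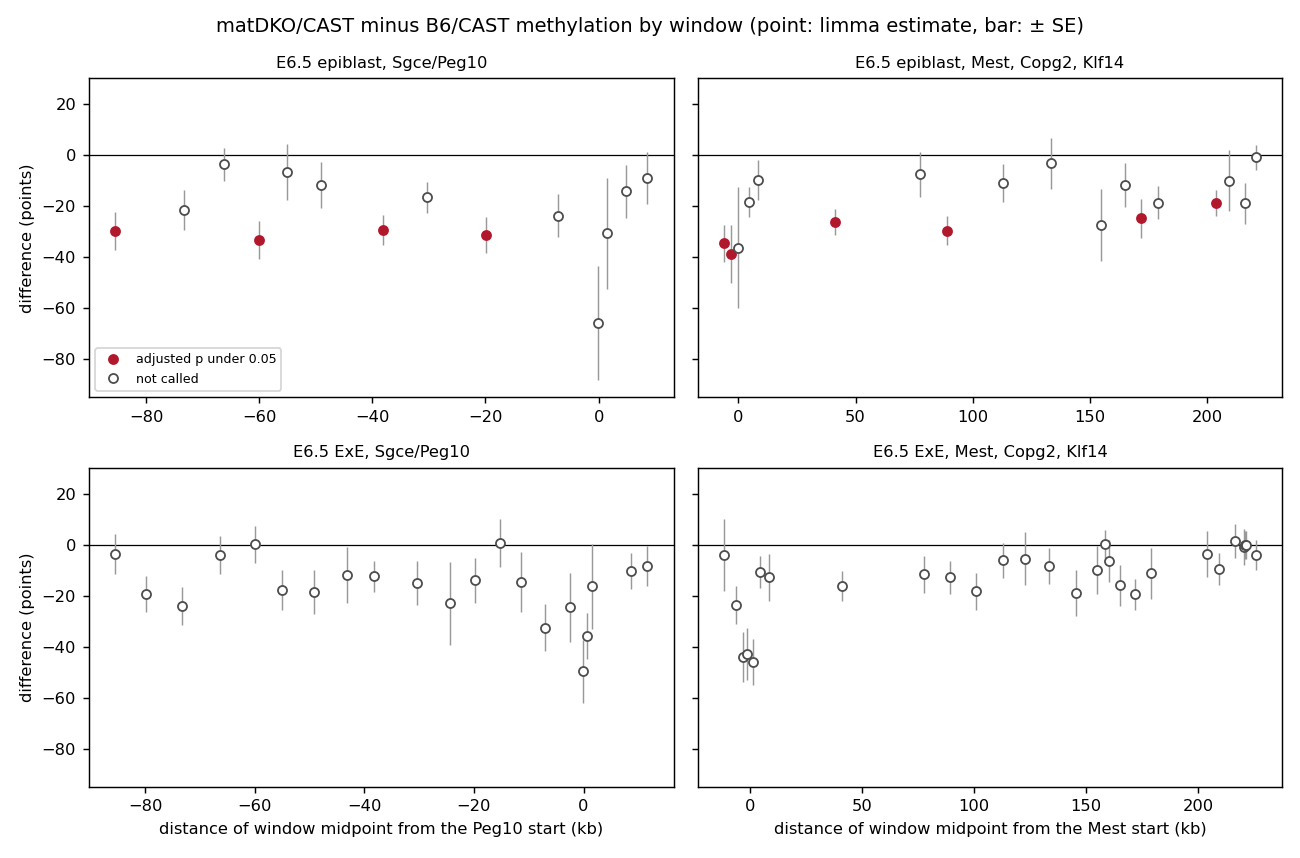
matDKO/CAST minus B6/CAST methylation of each tested window at E6.5, in percentage points against the distance of the window's midpoint from the Peg10 or the main Mest start in kb, in epiblast and ExE; points are limma estimates, bars standard errors, and filled points passed an adjusted p of 0.05. The values around the starts reach -65.8 points in epiblast and -49.7 in ExE, and none of the ExE windows was called.

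The reciprocal crosses were compared at E6.5. Limma called 0 of 32 windows in epiblast (2 at an unadjusted p under 0.05) and 0 of 49 in ExE (5 at an unadjusted p under 0.05), with 0% of all windows called in both tissues. The median member was higher in CAST/B6 by 6.67 points in epiblast and 5.41 in ExE, and the median over all windows was higher by 8.00 and 11.5 points. The most shifted member was chr6:4705994-4712243 in Sgce, at 57.8% and 64.9% in B6/CAST ExE and 86.7% and 95.5% in CAST/B6 (29.7 ± 6.84 points, SE, adjusted p = 0.111). Over the Mest region the B6/CAST epiblast libraries were at 70.4%, 63.8% and 47.2% and the CAST/B6 libraries at 67.1%, 64.3% and 60.9%, so the crosses overlapped. In ExE they did not, with B6/CAST at 60.3% and 55.4% and CAST/B6 at 70.0% and 63.3%, but 2 against 2 libraries cannot reach an exact p of 0.05.

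Between E6.5 and E7.5 the embryo gastrulates and the epiblast gives rise to the germ layers. The days differed in pooling, input and sequencing, and the windows of the 2 tables are not the same, so these differences cannot be told apart from the day. E7.5 windows were averaged onto the E6.5 windows by overlap. In epiblast limma called 3 of 48 windows lower at E7.5, and none higher, against 3.01% of all windows called, 0.745% lower and 2.26% higher. They were chr6:4747651-4748247 at the Peg10 start (-33.0 ± 6.43 points, SE, adjusted p = 0.0170), chr6:4749343-4755031 in Peg10 (-39.9 ± 4.46, adjusted p = 0.00061) and chr6:30736116-30737609 in the Mest region (-25.1 ± 5.76, adjusted p = 0.0420). The Peg10 start window was at 31.0% to 77.8% in the 6 E6.5 libraries and the Mest window at 58.5% to 98.5%. Weighting by CpG in place of bases, an alternative added after the data were seen, gave -32.8, -24.1 and -25.8 points, with exact permutation p of 0.0143, 0.00476 and 0.00476. Leaving out B6/CAST E7.5 replicate 2, CAST/B6 E7.5 replicate 1 or CAST/B6 E7.5 replicate 2 left 1 window called.

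In ExE 1 of 51 windows was called higher at E7.5 and none lower, against 1.4% of all windows called, 1.19% higher and 0.204% lower. It was chr6:30896756-30899410 beside the Copg2 promoter (26.1 ± 4.6 points, SE, adjusted p = 0.0353). It lies partly on an E7.5 window at 0.614% and partly on one at 51.2%, and weighting by CpG gave 11.8 points (exact permutation p = 0.0286, the smallest possible). Leaving out 1 library gave 0 to 2 windows called. The level of the Mest region was 62.3% in both tissues at E6.5 and 48.1% and 47.7% at E7.5, from windows with different bounds.

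Genes beside Peg10 were taken by the windows over their starts (Calcr, Tfpi2, Casd1, Ppp1r9a, Pon1, Pon3, Pon2 and Asb4). Limma called 0 of 11 windows for a parental difference in ExE and 0 of 9 in epiblast, against 0.00722% and 0.00838% of all windows. The median parental difference of these windows was -0.872 points in ExE and -4.06 in epiblast. Differences ran from -10.5 to 7.36 points in ExE and from -20.2 to 17.3 in epiblast. Epiblast was higher than ExE at E7.5 in 4 of 14 windows and lower in 1, against 82.9% and 1.3% of all windows, and the median was 3.89 points against 16.5.

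The start windows of 16 other genes with a maternal gDMR were set beside these regions. Such a window need not lie in the gDMR, and the windows of both days can lie at different starts. In ExE 3 of 10 were higher on the maternal allele (Peg3 by 77.9 points, Snrpn by 80.0 and Peg13 by 86.0) and 0 lower, and in epiblast 1 of 7 (Peg13 by 85.9), against 0.00503% and 0.00629% of all windows higher. Nespas, in the Gnas cluster, lay the other way without passing the test. Its start window was at 14.6% on the maternal and 78.8% on the paternal allele in ExE (-64.2 points, adjusted p = 0.089), and at 3.85% and 85.5% in epiblast (-81.7 points, adjusted p = 0.156). In matDKO/CAST epiblast 3 of 10 were lower than in B6/CAST (Nap1l5 by -41.6 points, Zrsr1 by -38.2 and Slc38a4 by -27.0), against 23.4% of all windows lower. The Slc38a4 window, chr15:97017779-97020599, was at 87.2% in wild-type epiblast and lies apart from the E7.5 start window and from the window named by its profile. The list median was -33.7 points, against -16.4 over all windows. In ExE 0 of 12 were called, with a median of -22.9 points against -12.4.

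The windows whose profile was closest to each region were found by the root mean square difference over 14 group means (6 at E6.5 and 8 alleles at E7.5) across 251681 windows. For the Peg10 region they lay at Gnas (9.92 points), Slc38a4 (11.2), Snrpn and Snurf (12.5), Peg3 and Usp29 (14.7) and Impact (14.9). For the Mest region they lay at Slc38a4 (8.72), Kcnq1ot1 (9.29), Gnas (9.83), Peg3 and Usp29 (11.3) and Airn and Igf2r (11.5). All of these are known imprinted loci, and Gnas, Slc38a4 and Peg3 stood in both lists. The measure uses the same values as the comparisons above and is given as a description.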

How the data were processed

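PBAT libraries were trimmed with Trim Galore 0.4.4 and aligned with Bismark 0.20.0, per the submitters' processing notes, to GRCm38 masked at strain polymorphisms; E7.5 reads were split by allele with SNPsplit. The authors deposited percent methylation per window, 1 table at E6.5 and 2 at E7.5 (all reads, and alleles). The window rule, the minimum coverage and the coverage itself are not given in the sources used here, so depth is unknown and no interval was computed. The name of 1 E6.5 column matched a group but carried a replicate number that no label of the group has, and 5 columns carried a reimport mark.

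Groups came from the labels. Nothing says that pools came from separate litters, so p-values measure the spread between these samples. Windows with a value in every library of a comparison were fitted across all autosomes with limma 3.58.1 (R 4.3.3) on the percent scale, without a replicate block, with Benjamini-Hochberg adjustment over all windows at 0.05. Parental and strain differences were fitted within libraries. Regions were compared by two-sided exact permutation tests. E6.5 values of a region are means weighted by overlap, and E7.5 windows were mapped onto E6.5 windows covered by at least 50%. The fits were tested on simulated data with 200 windows changed. For matDKO/CAST less B6/CAST in ExE, 0 were recovered at 30 points and 187 at 60. The parental fits recovered 137 in ExE and 146 in epiblast at 30 points, with 25 and 27 false calls. Genes came from GENCODE M21, sequences from RefSeq and GRCm38.p6. Named windows were all those of the 5 member genes, with fixed lists of genes flanking Peg10, other gDMR genes and lineage markers; the members and lists were chosen with earlier results of these data known. The genes flanking Mest are not reported here. The alternatives were the logit scale, a trended robust fit, library means subtracted, every second window, the replicate block, other controls, other bounds and leaving out each library.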

Additional observations from a re-analysis of the deposited data

Results flagged for a closer look

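In groups of 4 to 6 libraries, 78 sets of window values were examined for a library far from the rest, and 6 were marked; chance marks about 1 in 20 sets. At the window before the main Mest start, chr6:30736478-30737788, the paternal allele of CAST/B6 epiblast replicate 1 was at 14.7%, while the other 3 E7.5 epiblast libraries were at 0% to 0.877%. At E6.5, CAST/B6 epiblast replicate 3 was at 2.63% on the main Mest start, chr6:30737610-30738287, and the other 5 wild-type libraries were at 55.5% to 81.4%. The remaining 4 were low values beside 0%. They were a paternal 2.94% on the main Mest start in B6/CAST epiblast replicate 1 and a paternal 0.658% at the Copg2 promoter in CAST/B6 epiblast replicate 2. At the Klf14 start they were a maternal 0.877% in B6/CAST epiblast replicate 1 and a paternal 2.17% in CAST/B6 epiblast replicate 2. The other 3 libraries were at 0% in each of these sets.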

How the results depend on the processing

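Depth could not be varied, since no coverage was given, and a minimum coverage was not run. Of 311 alternative values for 25 comparison results, 233 kept direction and side of the threshold, 25 lost and 2 gained a call, 40 moved and 11 reversed. Of 244 for 22 named windows, 144 kept theirs, 100 lost the call and 0 reversed. Using every second window tests fewer windows by construction.

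Deviations of same-numbered libraries from their group means correlated at -0.0115 to 0.0506, and at 0.0486 to 0.0506 between the tissues at E7.5. At E7.5 the replicate with the higher mean level had the same number in both tissues of each cross. Whether the replicate numbers pair the samples cannot be told from these values. With the replicate block, calls were 0 for the ExE parental difference, 4 for the E6.5 tissue difference, 0 for matDKO/CAST epiblast and 0 for the ExE day difference. The block gave -24.0 points for Peg10 and -40.5 for Mest in matDKO/CAST ExE, and -37.9 for Mest in matDKO/CAST epiblast (exact permutation p = 0.5 each). Every second window left 0 parental calls in ExE and 0 in epiblast, 11 tissue calls at E6.5 and 20 at E7.5, 4 in matDKO/CAST epiblast, and 1 and 0 between days in epiblast and ExE. With the library mean subtracted there were 4 tissue calls at E6.5, 21 at E7.5, 0 in matDKO/CAST epiblast and 2 between days in ExE. That setting gave tissue differences of -5.01 and -25.2 points at Peg10 and -16.5 and -15.9 at Mest (E6.5 and E7.5), and matDKO/CAST differences of -9.92 at Peg10 in ExE and -14.2 at Mest in epiblast. The logit scale gave 0 calls in matDKO/CAST epiblast, and the trended robust fit 3 between days in ExE. All wild-type libraries as control gave 17 calls in epiblast and 9 in ExE. B6/CAST alone as control gave -22.6 points at Peg10 and -41.0 at Mest in ExE, and -37.4 at Mest in epiblast. Extended Peg10 bounds gave -52.7 points in matDKO/CAST epiblast. The 60-point Mest bounds gave -25.1 points there and a parental difference of 85.4 in ExE. The cause of each change was not tested.

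Leaving out 1 library gave 0 parental calls in either tissue, 17 to 23 tissue calls at E6.5, 38 to 41 at E7.5, 3 to 11 in matDKO/CAST epiblast (5 to 11 among numbered libraries), 1 to 4 between days in epiblast and 0 to 2 in ExE. The matDKO/CAST differences ran from -36.9 to -22.2 points (ExE) and -46.4 to -18.4 (epiblast) at Peg10, and from -50.3 to -40.5 and -42.7 to -18.2 at Mest. Tissue differences ran from 5.74 to 17.5 and -13.3 to -4.48 at Peg10, and from -2.26 to 3.03 (2.59 among numbered libraries) and -0.716 to 1.37 at Mest (E6.5 and E7.5). Parental differences ran from 92.7 to 95.9 (epiblast) and 75.5 to 89.3 (ExE) at Peg10, and from 75.9 to 81.9 and 68.4 to 75.8 at Mest.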
